A study of Mus musculus with 2 samples.

Results

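The genes described here encode the transcription complex built around GATA1, TAL1 and LDB1 in erythroid cells. They were taken by symbol from the GENCODE annotation of the mouse and comprise Gata1, Gata2, Tal1, Lyl1, Lmo2, Ldb1, Tcf3, Cbfa2t3, Zfpm1 and Gfi1b. These are 10 of the 43346 Ensembl gene rows in the deposited tables and 10 of 21461 nuclear protein-coding genes, and each of the 10 had reads in both libraries.

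In this complex the zinc finger protein GATA1 and the basic helix-loop-helix protein TAL1, paired with an E protein such as the product of Tcf3, contact DNA. LMO2 bridges them, and LDB1 binds LMO2 and self-associates, through which distant sites on DNA are brought together. ETO2 (Cbfa2t3), FOG1 (Zfpm1) and GFI1B connect the DNA-binding factors with corepressors, and GATA2 and LYL1 are the relatives of GATA1 and TAL1 that act in earlier progenitors.

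Total RNA was sequenced from 1 group of 2 samples of G1E-ER4, an immortalized mouse erythroid line in which Gata1 has been put back in a form that estradiol switches on. Both samples received 17beta-estradiol at 10 nM for 24 h. The labels give the strain as C57BL/6J, the sex as male and the samples as biological replicates 1 and 2, so both libraries share line, genotype and treatment, and the loss of the chromosomal Gata1 is common to both. No library without estradiol was analysed here, and a response to the treatment was therefore not tested.

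Replicate 1 held 62081014 expected counts in all and replicate 2 held 41051163. Of 10 erythroid markers, 9 reached 1 TPM in both libraries, against 36.3% of nuclear protein-coding genes. Epb42, a red cell membrane gene of late erythroid cells, was the exception at 0.49 and 0.80 TPM. Slc4a1 (2.88 and 4.15 TPM) and Epor (3.33 and 2.77 TPM) were also low. The summed level of the 10 was 1817 TPM in replicate 1 and 2586 TPM in replicate 2, of which Hbb-bs alone gave 985 and 1629 TPM. Markers of other lineages summed to at most 4.50 TPM for megakaryocytes, 0.74 TPM for myeloid cells, 0.02 TPM for lymphoid cells and 0.06 TPM for endothelial and stromal cells in either library. Among the myeloid markers Mpo had 16 and 62 counts, and among the megakaryocyte markers Itga2b and Gp1ba were the 2 of 6 at 1 TPM or more in both libraries. Mast cell markers summed to 16.59 TPM in replicate 1 and 14.02 TPM in replicate 2, of which Hdc, the histidine decarboxylase gene, gave 16.17 and 13.26 TPM, while Cpa3 stayed at 0.37 and 0.60 TPM. The part of any of these cells in the levels below was not tested, and in bulk RNA fewer cells of a type and less RNA per cell cannot be told apart.

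Transcript levels of the 10 genes ran between 0.19 and 69.42 TPM in replicate 1 and between 0.17 and 82.73 TPM in replicate 2, with the same order in both libraries. In CPM, which is not divided by length, 8 of the 10 kept their place, since Zfpm1 was above Lmo2 in replicate 1 (327 and 290 CPM) and below it in replicate 2 (320 and 359 CPM). TPM is a length-scaled share of all RNA in a library, as the authors deposited it. The nuclear protein-coding genes together held 140991 TPM in replicate 1 and 143913 TPM in replicate 2, a minor part of the total. A cut of 1 TPM is therefore stricter here than it would be on a scale of these genes alone. A level of 1 TPM or more in both libraries was reached by 9 of the 10 genes, against 36.3% of nuclear protein-coding genes, and Lyl1 was the gene below it. That place of Lyl1 depended on the scale. Expressed as a share of protein-coding RNA only, Lyl1 came to 1.35 in replicate 1 and 1.18 in replicate 2, and 10 of the 10 genes passed. The 36.3% belongs to the deposited scale. The share of all genes that pass on the other scale was not counted, so the 10 of 10 has no background beside it. The median over the 10 genes was 13.11 TPM in replicate 1 and 15.19 TPM in replicate 2, while the 7781 nuclear protein-coding genes at 1 TPM or more in both libraries had medians of 6.44 and 6.38 TPM.

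**Figure D1:**
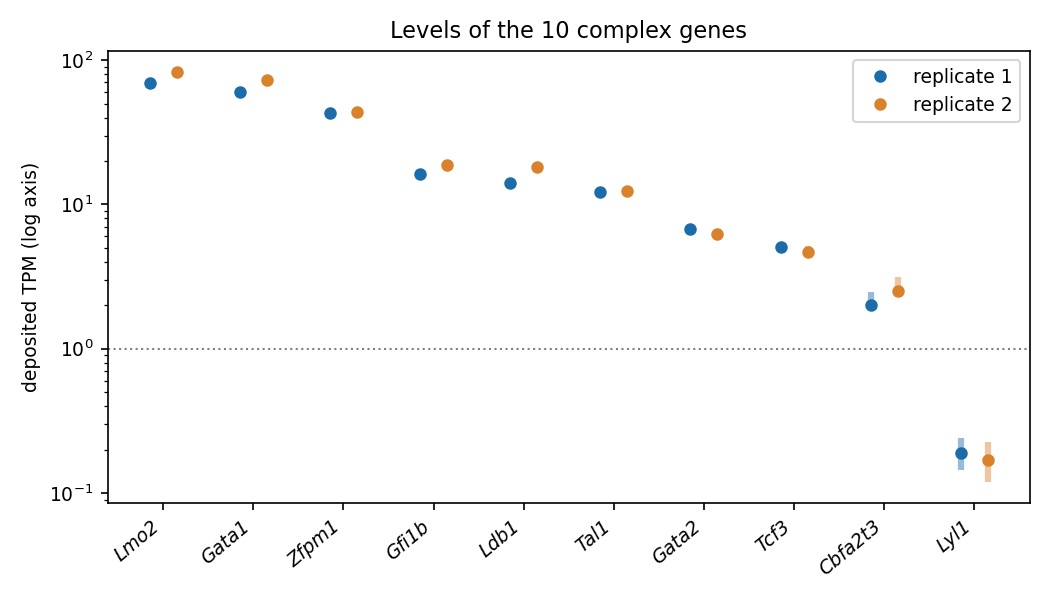
Deposited TPM (log axis) of the 10 complex genes in replicate 1 and replicate 2, ordered by mean level, with vertical bars for the deposited credible bounds and a dotted line at 1 TPM. Lmo2 leads at 69.42 and 82.73 TPM, Lyl1 is lowest at 0.19 and 0.17 TPM, and both libraries give the same order.

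Among the DNA-binding members, Gata1 had 60.05 TPM in replicate 1 and 73.23 TPM in replicate 2 (ENSMUSG00000031162, GRCm38 chromosome X, 7959260 to 7978071, minus strand). Reads of the introduced form and of the chromosomal gene are not separated in these tables. Gata2, the GATA factor of stem and progenitor cells, was read at 6.77 TPM in replicate 1 and 6.28 TPM in replicate 2 (ENSMUSG00000015053, chromosome 6, 88193891 to 88207032, plus strand). Both Gata2 values lay below both Gata1 values, and Gata2 stood at percentile 82.5 and 81.6 of all nuclear protein-coding genes. Gata3, the GATA factor of T lymphocytes, had 0.64 and 0.18 TPM from 111 and 62 counts, and Gata2 exceeded it by 4.26 ± 1.22 on the log2 scale (SD, n = 2). This difference depended on the unit, at 5.32 ± 0.14 in counts not divided by length and 3.23 ± 0.38 by posterior mean TPM. Gata4, Gata5 and Gata6, the relatives active in heart and endoderm, had 0 counts in both libraries.

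Tal1 was measured at 12.10 TPM in replicate 1 and 12.33 TPM in replicate 2 (ENSMUSG00000028717, chromosome 4, 115056426 to 115071755, plus strand). Its close relative Lyl1, which can stand in for TAL1 in blood stem cells, was read at 0.19 TPM in replicate 1 and 0.17 TPM in replicate 2 (ENSMUSG00000034041, chromosome 8, 84701457 to 84704715, plus strand). Tal1 was thus 63.7-fold higher than Lyl1 in replicate 1 and 72.5-fold higher in replicate 2, a mean log2 ratio of 6.09 ± 0.13 (SD, n = 2). Lyl1 rested on 62 and 38 counts. Nfix, a gene on the opposite strand that overlaps Lyl1, had 103 and 39 counts, and reads of genes that overlap on opposite strands cannot be told apart unless counting used strand, which is not given in the sources used here. Tal2, another TAL family gene, had 7 and 1 counts, and Nhlh1, a basic helix-loop-helix gene of neurons, had 0.

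The 250 bases before the start sites of Tal1 and Lyl1 (RefSeq promoters, GRCm38.p6; chr4:115056176-115056425 and chr8:84701207-84701456, both plus strand) are shown because these relatives stood so far apart in level. Capitals mark GATA sites (the letters GATA preceded by A or T and followed by A or G, on either strand) and E-boxes (CANNTG, the same on both strands).
Tal1 upstream: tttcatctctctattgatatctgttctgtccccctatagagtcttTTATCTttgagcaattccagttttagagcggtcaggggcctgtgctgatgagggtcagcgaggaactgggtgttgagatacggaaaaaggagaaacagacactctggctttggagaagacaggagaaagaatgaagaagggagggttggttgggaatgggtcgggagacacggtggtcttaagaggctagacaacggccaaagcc
Lyl1 upstream: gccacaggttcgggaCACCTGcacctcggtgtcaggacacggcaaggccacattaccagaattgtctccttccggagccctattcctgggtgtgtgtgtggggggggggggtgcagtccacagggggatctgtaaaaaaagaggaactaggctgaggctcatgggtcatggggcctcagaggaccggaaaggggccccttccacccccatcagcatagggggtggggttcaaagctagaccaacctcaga
The Tal1 window holds 1 GATA site, read on the other strand as AGATAA, and the Lyl1 window holds 1 E-box. These are matches of letters and not measured binding. Promoter windows were given for 9 of the 10 genes (14 start sites, none for Lmo2). A GATA site was found in 4 of the 14 (28.6%), against 26.5% of the 32851 mouse promoters of that length, and an E-box in 7 of the 14, against 66.2%. The 4 windows with a GATA site were 1 each of Gfi1b, Tal1, Cbfa2t3 and Ldb1. That of Ldb1 belongs to a start site 1070 bases from the nearest annotated transcript start, that of the retained-intron transcript Ldb1-204. The Ldb1 windows nearest to the protein-coding transcripts Ldb1-206 and Ldb1-202 held 0 GATA sites. The composite CTGNNNNNNNNAGATAA, an E-box end spaced before a GATA site that TAL1 and GATA1 complexes are known to occupy, was searched on both strands and found in 0 of the 14 and in 0.307% of all promoters; its last 6 letters also count as a GATA site.

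Tcf3, which encodes the E proteins E12 and E47, had 5.09 TPM in replicate 1 and 4.71 TPM in replicate 2 (ENSMUSG00000020167, chromosome 10, 80409514 to 80433647, minus strand). Tcf12, which encodes the E protein HEB, was higher at 12.72 and 10.03 TPM, and Tcf4, which encodes E2-2, was lower at 1.75 and 1.95 TPM. The log2 ratio of Tcf3 to Tcf12 was -1.21 ± 0.16 and that to Tcf4 1.41 ± 0.19 (SD, n = 2 each), so the order of the 3 E protein genes was the same in both libraries. Tcf3 was also lower than Tal1, at 0.401 of its level on average. Id1, which encodes an inhibitor that sequesters E proteins, was at 5.05 and 5.13 TPM. Its log2 ratio to Tcf3 of 0.06 ± 0.10 (SD, n = 2) was smaller than its spread. Id1 was the 1 of 4 Id genes at 1 TPM or more, since Id2 had 0 and 1 counts and Id3 and Id4 had 0.

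Of the bridging members, Lmo2 was several times higher than Ldb1. Lmo2 had 69.42 TPM in replicate 1 and 82.73 TPM in replicate 2 (ENSMUSG00000032698, chromosome 2, 103957986 to 103981878, plus strand). Ldb1 had 14.12 TPM in replicate 1 and 18.05 TPM in replicate 2 (ENSMUSG00000025223, chromosome 19, 46031570 to 46045214, minus strand). Lmo2 exceeded Ldb1 by 4.75-fold (log2 ratio 2.25 ± 0.07, SD, n = 2) and Tal1 by more (2.63 ± 0.16), while Gata1 over Lmo2 was close to parity at -0.19 ± 0.02. Gata1 was below Lmo2 within each library, and this ratio was larger than its spread, although the ranges of the genes over the 2 libraries overlapped. Without division by length the ratio turned round (0.22 ± 0.03). Of the relatives, Lmo4, a broadly expressed LIM-only gene, had 0.85 and 0.76 TPM, 94.3-fold less than Lmo2. Lmo1, Lmo3 and Ldb2 had 0 counts in both libraries. Against a floor of 3 counts in each library, Lmo2 was at least 3342-fold higher than Lmo1, and Ldb1 at least 1940-fold higher than Ldb2.

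The partners that stabilise or degrade LDB1 were all present. Ssbp2, Ssbp3 and Ssbp4, which encode single-stranded DNA-binding proteins that protect LDB1, and Rlim, which encodes the ubiquitin ligase that marks it for degradation, make up a list of 4. Of these, 4 of 4 were at 1 TPM or more in both libraries, against 36.3% of nuclear protein-coding genes. Ssbp3 was at 6.11 and 6.99 TPM, Ssbp2 at 5.92 and 5.34 TPM, Ssbp4 at 1.73 and 2.01 TPM and Rlim at 16.56 and 15.64 TPM. Ssbp3 was below Ldb1 in both libraries (log2 ratio -1.29 ± 0.11, SD, n = 2).

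Of the members that carry corepressors, Zfpm1 was the highest at 43.30 TPM in replicate 1 and 43.52 TPM in replicate 2 (ENSMUSG00000049577, chromosome 8, 122282141 to 122337251, plus strand). Gfi1b followed at 16.27 TPM in replicate 1 and 18.70 TPM in replicate 2 (ENSMUSG00000026815, chromosome 2, 28609450 to 28621982, minus strand). Cbfa2t3 had 2.00 TPM in replicate 1 and 2.52 TPM in replicate 2 (ENSMUSG00000006362, chromosome 8, 122625141 to 122699109, minus strand), the lowest of the members above 1 TPM. Gata1 exceeded its cofactor Zfpm1 by 0.61 ± 0.20 on the log2 scale and Gfi1b by 1.93 ± 0.06 (SD, n = 2 each). Over protein-coding transcripts alone, Gata1 exceeded Zfpm1 by 1.27 ± 0.28, and in counts not divided by length the difference of 0.22 ± 0.27 was smaller than its spread. Tal1 exceeded its corepressor partner Cbfa2t3 by 2.44 ± 0.22, and by 3.16 ± 0.23 over protein-coding transcripts alone. Gfi1b was above its neighbour Ldb1 in the order by 0.20 in replicate 1 and 0.05 in replicate 2 on the log2 scale (0.13 ± 0.11), and their ranges over the libraries overlapped.

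Among the relatives of the corepressor-linked members, Cbfa2t2 alone reached 1 TPM. This gene, which encodes the ETO family protein MTGR1, was at 1.54 and 1.60 TPM, and Cbfa2t3 exceeded it by 0.52 ± 0.20 on the log2 scale (SD, n = 2), which turned round to -0.39 ± 0.21 in counts not divided by length. Runx1t1, which encodes ETO, had 0 and 1 counts. Zfpm2, the FOG2 gene of heart and gonad, had 5 and 2 counts, and Gfi1, the relative of Gfi1b in myeloid and lymphoid cells, had 14 and 5 counts. In all, 3 of the 16 relatives listed for the 10 members (Tcf12, Tcf4 and Cbfa2t2) were at 1 TPM or more in both libraries, against 36.3% of nuclear protein-coding genes. Of the 16, 7 had 0 counts in both. The share of all genes with 0 counts was not counted. The median over all nuclear protein-coding genes was itself near 0, at 0.01 TPM in replicate 1 and 0.03 TPM in replicate 2.

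Ratios within a library were called where both libraries had the same sign and the mean log2 ratio was larger than its SD. Of 26 pairs, 25 were called: 13 of 13 between relatives, with the member named first higher in 12, and 12 of 13 between partners, with the gene named first higher in 8. The same rule called 92.1% of all pairs of the 7781 nuclear protein-coding genes at 1 TPM or more, so a call is common between any genes of unlike level. In 6 of the pairs a gene had 0 to 7 counts and its ratio rests on the floor of 3 counts, so only its counts are given here, except for Lmo1 and Ldb2. An exact two-sided test that flips the signs of 2 ratios cannot give a p below 0.5, and none is printed.

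**Figure D2:**
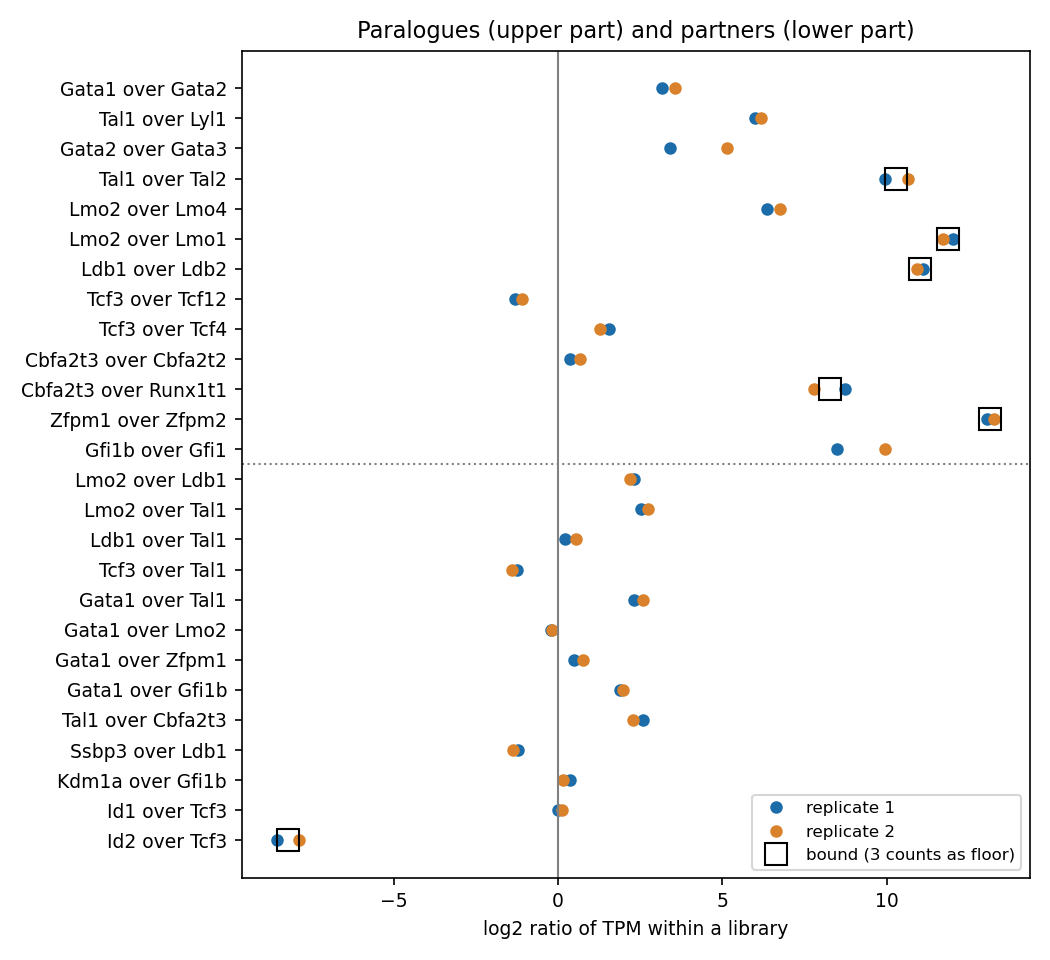
Log2 ratio of TPM within each library for 13 pairs of relatives (above the dotted line) and 13 pairs of partners (below it), with 1 point per library and open squares where a gene at or near 0 was set to a floor of 3 counts. Points right of 0 mean that the gene named first is higher; Tcf3 over Tcf12 lies left of 0 in both libraries, and Id1 over Tcf3 lies at 0.06.

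The corepressors and coactivators that the complex recruits were mostly present. Of 12 corepressor genes, 11 were at 1 TPM or more in both libraries, against 36.3% of nuclear protein-coding genes. Ncor1, a nuclear receptor corepressor, led at 40.76 and 37.44 TPM. Of the NuRD complex, which FOG1 binds, Chd4 was at 27.07 and 25.12 TPM, Mta2 at 22.63 and 25.32 TPM and Mbd3 at 2.24 and 2.99 TPM. Kdm1a, the LSD1 histone demethylase that GFI1B recruits, was at 21.08 and 20.68 TPM and exceeded Gfi1b by 0.26 ± 0.16 on the log2 scale (SD, n = 2), although their deposited credible intervals overlapped in a library. All 7 coactivator genes were at 1 TPM or more in both libraries, against the same 36.3%. Kat2b, the acetyltransferase PCAF, had 18.45 and 19.50 TPM, and Ep300, the p300 acetyltransferase, had 7.17 and 6.84 TPM. Smarca4, the BRG1 remodeller, had 4.68 and 4.48 TPM, and Med1, a Mediator subunit, had 3.93 and 3.90 TPM. Lowest were Crebbp, the CBP acetyltransferase, at 1.93 and 1.71 TPM, and Brd3, a bromodomain protein that binds acetylated GATA1, at 1.39 and 1.35 TPM.

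All 6 listed factors known to bind DNA beside the complex were at 1 TPM or more in both libraries, against 36.3% of nuclear protein-coding genes. Nfe2, the erythroid bZIP factor, was at 48.62 and 51.73 TPM and Klf1, the erythroid Kruppel-like factor, at 28.11 and 27.56 TPM, both between Tal1 and Lmo2 in level. Fli1, an ETS factor of megakaryocytes, was at 11.16 and 11.75 TPM and Runx1 at 9.88 and 9.79 TPM. Myb, a progenitor factor, was at 2.13 and 2.40 TPM, and Spi1, the myeloid PU.1 factor, at 1.78 and 1.22 TPM. Of 5 genes known as repressed by GATA1, Kit stood at 8.62 and 7.07 TPM, Hhex at 6.91 and 6.41 TPM and Myc at 1.15 and 1.61 TPM, beside Gata2 and Lyl1 above. Without an untreated library, these levels do not show whether estradiol changed them.

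Differences between the libraries were measured for the 10 genes. Replicate ratios are log2 ratios of CPM, counts scaled to a common library total with TMM factors, replicate 1 over replicate 2. Of the 9 members with a mean count of 100 or more (all but Lyl1), 0 differed 2-fold or more between the libraries, against 2.06% of the 9777 genes past that filter, and 0 differed 1.5-fold or more, against 7.87%. The median absolute log2 ratio was 0.19 over the 9 members, above that of 0.16 over all genes past the filter. Gata1 had the largest ratio of the 9 at -0.32, with 336 CPM in replicate 1 and 420 CPM in replicate 2. Lmo2 (-0.27), Gfi1b (-0.26), Ldb1 (-0.24) and Tal1 (-0.16) were also lower in replicate 1, while Cbfa2t3 (0.19), Tcf3 (0.18), Gata2 (0.08) and Zfpm1 (0.06) were higher in it. Hbb-bs, an adult beta globin gene that shares reads with its near-identical copy Hbb-bt, was likewise lower in replicate 1, at 985 TPM, than in replicate 2, at 1629 TPM. Its part in the ratios of the members was not tested.

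Whether Cbfa2t3 was higher or lower in replicate 1 depended on the unit. It had 19.1 CPM in replicate 1 and 16.7 CPM in replicate 2, whereas in TPM replicate 1 was lower, with a log2 ratio of -0.33. The effective length used to scale its counts was 2863 bases in replicate 1 and 1930 in replicate 2. Opposite signs in both units were seen in 2 of the 9 members (Cbfa2t3 and Zfpm1), against 12.4% of 7771 protein-coding genes. For Zfpm1 both log2 ratios were close to 0, at 0.06 in CPM and -0.007 in TPM. An effective length that differed by 25% or more was seen in 1 of the 9 (Cbfa2t3), against 3.14%.

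**Figure D3:**
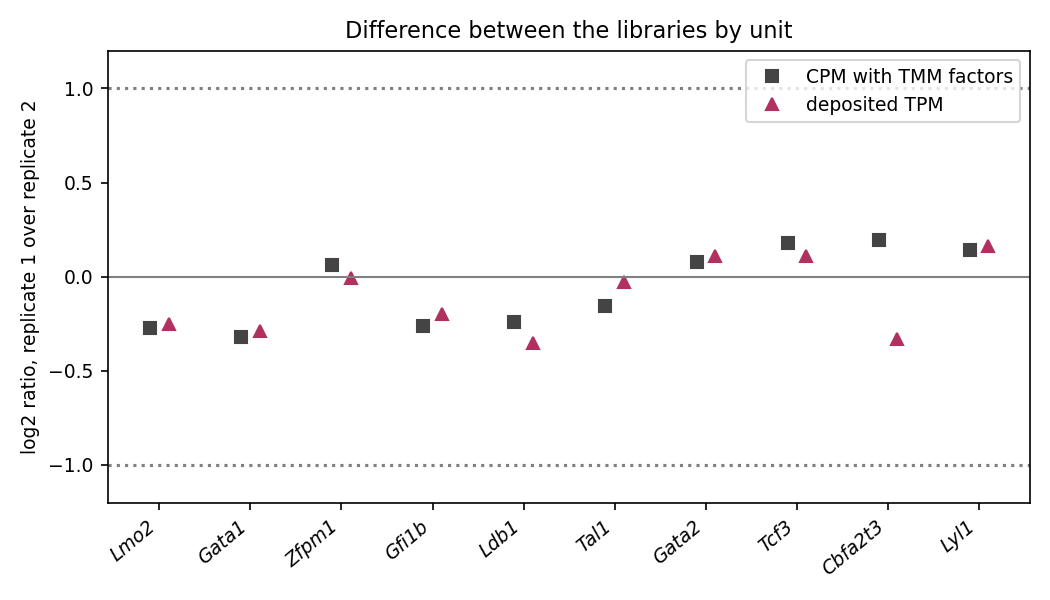
Log2 ratio of replicate 1 over replicate 2 for the 10 genes, in TMM-scaled CPM (squares) and in deposited TPM (triangles), with dotted lines at 2-fold. No member reaches 2-fold, and Cbfa2t3 lies at 0.19 in CPM and at -0.33 in TPM.

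Transcript tables showed where these genes have more than 1 product. The members have 55 annotated transcripts in the deposited tables, of which 45 had reads in either library. Some of these rest on about 1 count in a single library, such as Lmo2-206 (1.05 and 0) and Gfi1b-203 (0 and 1.04). The share of all transcripts with reads was not counted. Of the 9 members with several transcripts and at least 1 TPM, 6 had a largest transcript with over 50% of the gene's TPM on average, against 73.1% of such protein-coding genes, and in 2 (Ldb1 and Cbfa2t3) the largest transcript was not the same in both libraries, against 10.5%. By expected counts this held for 0 of the 9, against 7.22%, with Ldb1-205 and Cbfa2t3-203 the largest in both libraries. Gata1 was nearly all in 1 transcript, Gata1-201, with 98.46% and 99.35% of its TPM. The introduced form is not separated in these reads, so the shares do not describe the chromosomal gene alone. Gata1-203, which begins at another first exon, had 41.45 and 13.81 counts, and Gata1-202, from the most distal first exon, had 0.

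For Tcf3 the choice with the clearest known consequence is that between adjacent exons that each encode a basic helix-loop-helix domain, the part that pairs with TAL1 and contacts the E-box. Transcripts with the E47 exon held 4.13 TPM in replicate 1 and 3.45 TPM in replicate 2, and those with the E12 exon 0.75 and 0.52 TPM. E47 forms were thus 5.51-fold higher in replicate 1 and 6.63-fold higher in replicate 2 (log2 ratio 2.60 ± 0.19, SD, n = 2), or 85.8% ± 1.61 of the TPM in protein-coding transcripts. The sum over exons was steadier than single transcripts, since Tcf3-205 had 22.89% and 0.54% of the gene's TPM and Tcf3-202 had 0% and 18.06%.

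The exons that separate both E proteins are shown in full (GENCODE transcripts, GRCm38, minus strand; chr10:80410398-80410624 for E47 and chr10:80412827-80413062 for E12). They align with 175 identical bases of 227 aligned (77.1%), and capitals mark the bases that differ in that alignment.
Tcf3 E47 exon: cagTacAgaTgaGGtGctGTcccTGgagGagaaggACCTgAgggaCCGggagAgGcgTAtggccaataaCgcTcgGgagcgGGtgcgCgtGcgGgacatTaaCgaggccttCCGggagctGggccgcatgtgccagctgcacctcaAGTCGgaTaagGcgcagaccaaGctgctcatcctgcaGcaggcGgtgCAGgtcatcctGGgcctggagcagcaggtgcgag
Tcf3 E12 exon: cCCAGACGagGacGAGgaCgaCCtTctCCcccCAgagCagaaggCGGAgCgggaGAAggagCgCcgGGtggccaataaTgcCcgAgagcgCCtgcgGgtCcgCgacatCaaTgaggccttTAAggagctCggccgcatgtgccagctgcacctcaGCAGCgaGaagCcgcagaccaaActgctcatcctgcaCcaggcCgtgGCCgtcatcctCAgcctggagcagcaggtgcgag
Capitals are scattered through both exons and are dense near the start, and the closing bases are shared. The E47 exon has 227 bases in most of its transcripts and 224 in Tcf3-204, and the E12 exon has 236.

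Ldb1 had no dominant product, and its largest transcript held 28.8% of TPM on average. Transcripts that end in the usual final exon held 7.95 TPM in replicate 1 and 8.05 TPM in replicate 2, over 5 transcripts. The shortened form Ldb1-205 held 4.35 and 4.82 TPM. It has 319 codons, against 375 in Ldb1-201, which has the same start codon and the usual end, and 411 in Ldb1-208, which begins at another start codon. Its share of the protein-coding TPM was 35.4% in replicate 1 and 37.5% in replicate 2, and it rested on 1616 and 1232 counts. Its own end lies within an intron of Ldb1-208, where reads of unspliced RNA would also fall. Their part in this share was not tested. The end of LDB1 is where LIM proteins such as LMO2 bind, so both ends are shown (GENCODE transcripts, GRCm38, minus strand). Capitals mark the stop codon.
Ldb1 shortened end (chr19:46033969-46034031): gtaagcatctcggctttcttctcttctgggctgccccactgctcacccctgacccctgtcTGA
Ldb1 final exon (chr19:46033111-46033341): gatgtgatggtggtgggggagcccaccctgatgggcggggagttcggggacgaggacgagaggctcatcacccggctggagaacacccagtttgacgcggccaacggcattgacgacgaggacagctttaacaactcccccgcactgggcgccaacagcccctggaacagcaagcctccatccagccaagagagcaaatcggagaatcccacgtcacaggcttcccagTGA
The shortened form has 60 coding bases of its own where Ldb1-201 and Ldb1-208 have 228, each followed by TGA.

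Ldb1 transcripts also differed at their start. The distal first exon held 63.0% and 61.0% of protein-coding TPM and the downstream one 37.0% and 39.0%. The downstream one was mostly the shortened form Ldb1-205, at 4.35 and 4.82 TPM, beside Ldb1-202 at 0.20 TPM in each library. The division by start is therefore largely that by end. Ldb1-204, annotated as a retained intron, had 1.40 TPM in replicate 1 and 4.91 TPM in replicate 2, from 200 and 475 counts, and was the largest transcript in replicate 2. Counted over protein-coding transcripts alone, Ldb1 was at 12.30 and 12.87 TPM and Tal1 at 12.10 and 12.32 TPM, closer than the gene totals, whose mean log2 ratio was 0.39 ± 0.23 (SD, n = 2). Pprc1, which overlaps Ldb1 on the opposite strand, had 193 and 194 counts.

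Gfi1b was divided between 2 reading frames. Gfi1b-201, of 330 codons, held 11.27 TPM in replicate 1 and 14.44 TPM in replicate 2. Gfi1b-204, of 363 codons, held 4.28 and 4.09 TPM, from 1422 and 932 counts, which was 27.5% and 22.1% of the protein-coding TPM. The longer frame carries 99 further bases after the first 648 coding bases, in the same frame. They are printed in capitals between 12 shared bases on each side (GENCODE transcript Gfi1b-204, GRCm38, minus strand, inserted bases chr2:28611585-28611683).
Gfi1b insert: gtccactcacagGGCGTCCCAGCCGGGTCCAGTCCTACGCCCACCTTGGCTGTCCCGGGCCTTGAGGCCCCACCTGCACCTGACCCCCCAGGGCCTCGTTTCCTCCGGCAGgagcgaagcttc
The shorter form was the larger one in both libraries, and the longer form varied less in TPM than the shorter one.

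Among the protein-coding transcripts of Gata2, Lmo2, Tal1 and Cbfa2t3 the main division was between first exons. Gata2, which in mouse has a distal and a proximal first exon, held 4.06 and 3.59 TPM in the distal form Gata2-202 and 2.71 and 2.69 TPM in the proximal form Gata2-201, both with 1440 coding bases. The distal share was 60.0% in replicate 1 and 57.2% in replicate 2. Lmo2 was mainly in transcripts from its distal first exon, with 85.4% and 86.5% of TPM, followed by Lmo2-204, with 9.89% and 9.61%. Forms with a longer coding part were minor: Lmo2-202, with 684 coding bases against 474 in Lmo2-208, had 3.15% and 2.84% of the gene's TPM. Tal1 was in its most upstream first exon, that of the promoter window printed above, for 87.7% of TPM in replicate 1 and 95.2% in replicate 2. Its short transcript Tal1-202 took 9.96% and 2.87% of TPM from only 119 and 23.3 counts. Cbfa2t3-203, from the distal first exon, held 81.5% and 77.2% of the protein-coding TPM of Cbfa2t3. The retained-intron transcript Cbfa2t3-207, with the same splice donor at its first exon, held 16.83% and 38.53% of the gene's TPM.

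**Figure D4:**
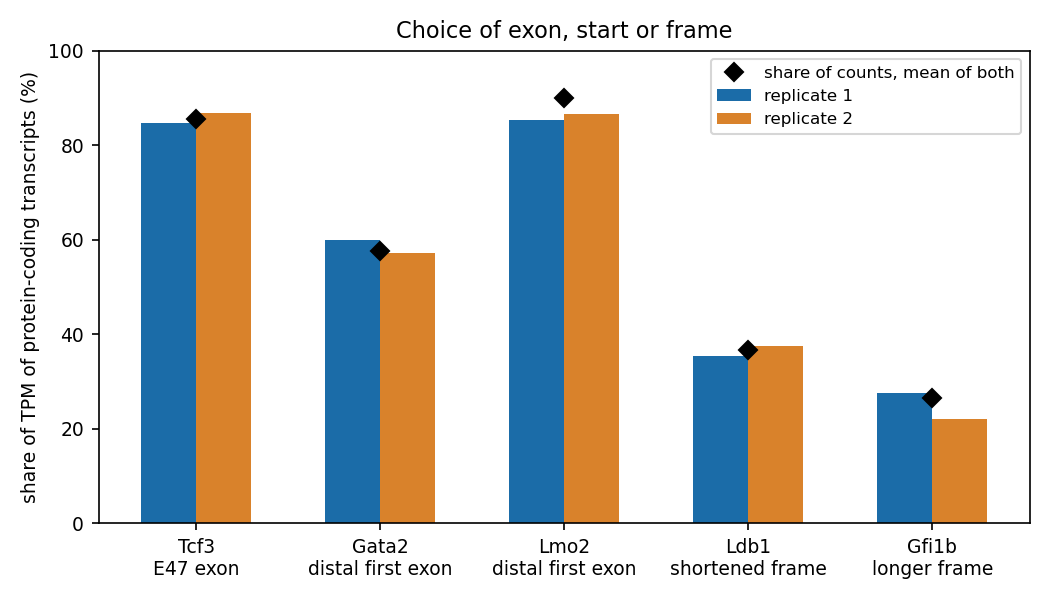
Share of the TPM of protein-coding transcripts (percent) held by 1 form of 5 members, with bars for replicate 1 and replicate 2 and a diamond for the mean share of expected counts. The E47 exon of Tcf3 (84.6% and 86.9%) and the distal first exon of Lmo2 (85.4% and 86.5%) dominate, while the shortened Ldb1 frame (35.4% and 37.5%) and the longer Gfi1b frame (27.5% and 22.1%) are minorities.

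Not all RNA of these genes was in protein-coding transcripts. The median protein-coding share of TPM was 97.3% over the 9 members with several transcripts and at least 1 TPM, and 87.9% over the 5845 such protein-coding genes. A share under 75% of TPM on average was seen in 2 of these 9 members (Zfpm1 and Cbfa2t3), against 32.4% of such genes. Replicate 1 alone gave 1 (Zfpm1), and replicate 2 alone gave 3, with Ldb1 at 71.3% by TPM and 86.8% by counts. In Zfpm1 the coding transcript held 28.54 TPM in replicate 1 and 26.52 TPM in replicate 2, which was 65.9% and 60.9% of TPM but 91.9% and 91.1% of counts. The remainder was in Zfpm1-202 (9.16 and 7.97 TPM) and Zfpm1-204 (5.41 and 9.03 TPM), short transcripts annotated as processed. In Cbfa2t3 the protein-coding share was 75.5% in replicate 1 and 48.8% in replicate 2 by TPM, and 97.2% and 91.6% by counts. The retained-intron transcript Cbfa2t3-207, of 537 bases, took 0.34 and 0.97 TPM from 23.03 and 43.89 counts. Over protein-coding transcripts alone Cbfa2t3 was at 1.51 TPM in replicate 1 and 1.23 TPM in replicate 2, so on this scale replicate 1 was the higher one, as in CPM. Gm10612, an antisense gene that overlaps Cbfa2t3, had 30 and 31 counts.

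**Figure D5:**
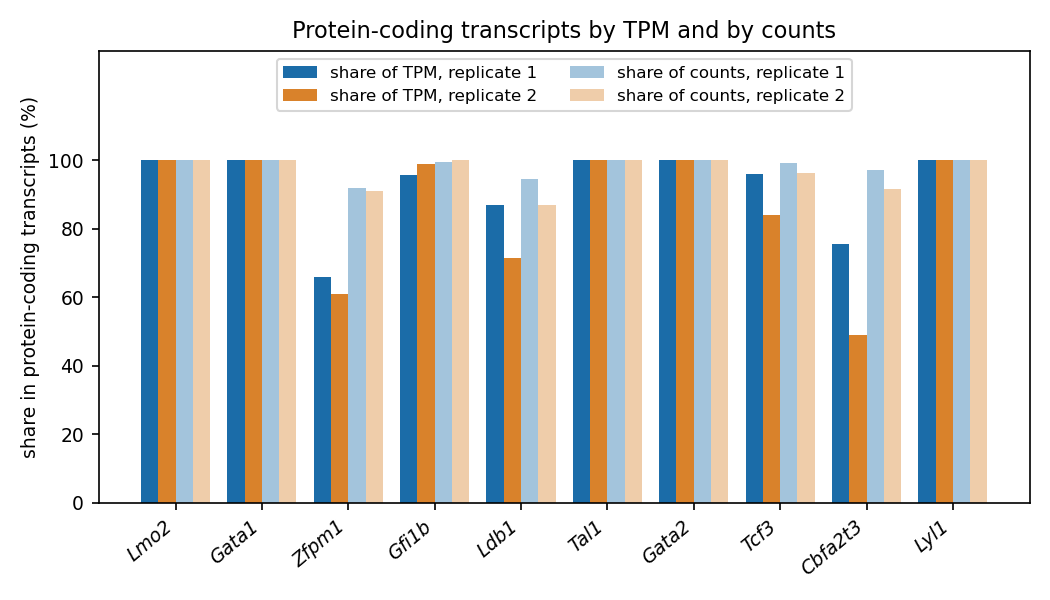
Share of each gene's TPM (dark bars) and expected counts (pale bars) in protein-coding transcripts (percent), in replicate 1 and replicate 2. By TPM Zfpm1 (65.9% and 60.9%) and Cbfa2t3 (75.5% and 48.8%) fall furthest below 100%, and by counts both exceed 91%.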

How the data were processed

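Total RNA was measured in 2 libraries (ScriptSeq, 100 ng of RNA depleted of ribosomal RNA, sizes of 200 to 1000, per the labels), each with 1 gene table and 1 transcript table. The authors deposited expected counts per gene and transcript, which are estimates and not all whole, against mm10 and GENCODE M4, per the text deposited with the tables. TPM was deposited beside a posterior mean, credible bounds of unstated level and an effective length, per the file headers. FPKM was deposited in the same tables, per the file headers, and served as an alternative. Each transcript's percent of its gene's TPM was deposited as well. The sources used here give no quantification program, aligner or strand setting.

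Symbols, transcript names, types and exons came from GENCODE M21 on the same assembly, joined on identifiers without version. Of the 55 transcripts of the members, 51 have the same length in M21. Gata2-202 (3133 bases deposited, 3135 in M21), Gata2-201 (3241 and 3571) and Cbfa2t3-203 (4047 and 7645) do not, nor does Ldb1-207, which had 0 counts. Rows that name no gene (26345) held 18 and 5 counts, 2.9e-05% and 1.22e-05% of the library, and were left out. TPM under 0.1 was recomputed from count and effective length for ratios, with a floor of 3 counts in each library, which covers counting error only. Replicate ratios used rounded counts, TMM factors (0.989 and 1.01) and a mean count of at least 100 in edgeR 4.0.16 (R 4.3.3). The script recovered 99.5% of changed genes when tested on simulated data for replicate 1 over replicate 2 with 43346 genes. Only genes past the count filter were changed there, each by more than 2-fold, so recovery of changes near the thresholds was not tested. DESeq2 1.42.0 gave alternative size factors, and Python 3.11 with pandas 2.3.3, numpy 2.4.6 and matplotlib 3.10.9 did the rest.

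The members, relatives, partner lists, markers and tests were chosen with earlier results of these data known. Genes named are the members, those of the 26 pairs, the 4 highest and 2 lowest of each list, and cell type markers. Other relatives with 0 counts and the genes that overlap a member were named after their values were seen. Values of some listed genes are not reported here. With 1 group of 2 libraries no gene could be named for a pattern like that of a member, and no p-value across genes is given. The labels do not say whether the replicates were separate cultures from the start, so their spread may be technical. Alternatives were other level estimates, thresholds, scalings, a pseudocount of 1 TPM, levels as CPM, shares and largest transcripts by counts, protein-coding transcripts alone and leaving out each replicate.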

Additional observations from a re-analysis of the deposited data

How the results depend on the processing

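No paired analysis was possible because the libraries form 1 group. The number of members at 1 TPM or more, 9, was between 9 and 10 under the other level estimates and without either replicate, and was 7 at a threshold of 5 TPM. The share of all genes was not counted under these alternatives. The median level of the members, 14.15 TPM, was between 13.11 and 15.19 TPM without either replicate, 99.3 when TPM was rescaled over nuclear protein-coding genes, which multiplies all levels alike within a library, and 12.4 TPM over protein-coding transcripts alone, an alternative added after seeing the data. The 10 members held the same order in both libraries under each level estimate but CPM, where 8 kept their place. No scaling, filter or threshold tried gave a member that differed by the fold asked for. Of the pairs, 25 were called by TPM, 22 by posterior mean TPM and 21 by FPKM, where pairs with a gene listed at 0 give no value, and 24 where credible intervals had to lie apart. With counts not divided by transcript length, 25 pairs were called but 3 turned round: Cbfa2t3 over Cbfa2t2 to a log2 ratio of -0.39, Ldb1 over Tal1 to -0.88 and Gata1 over Lmo2 to 0.22. There Gata1 over Zfpm1 (0.22) was no longer called and Id1 over Tcf3 (-1.68) became so. The median protein-coding share over all 10 members, 98.7%, was 99.9% by counts, and between 97.9% and 99.5% without either replicate. Shares by counts and by posterior mean for the 5 forms drawn above, added after seeing the data, moved by more than the spread for the distal first exon of Lmo2, which held 90.0% by counts. Depth limits Lyl1 and the relatives with under 10 counts, and the short transcripts whose TPM rests on under 50 counts.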
